A study of Homo sapiens with 12 samples.

Results

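CEL, LAPTM5, HSPA4L and AGTR1 are 4 genes of HepG2C3A cells whose change under acetaminophen differed between a culture microsystem and Petri dishes. They were chosen by that difference, measured on these same arrays, and they are 4 of 18404 genes with a probe set of exactly 1 symbol and of 13199 genes tested. HepG2C3A is a human hepatoma line that retains many hepatocyte functions, and its RNA was hybridised to 12 arrays (Affymetrix Human Gene 1.0 ST) in 4 groups of 3. The groups were cells treated with acetaminophen in the microsystem, untreated cells in the microsystem, cells treated with acetaminophen in Petri dishes, and untreated cells in Petri dishes. Culture lasted 96 h, of which 72 h with the analgesic in the treated groups; liver enzymes turn this drug in part into a reactive quinone imine. Neither the dose nor the build of the microsystem is stated in the labels, which also do not tell whether replicates were separate cultures, so p-values measure the spread between arrays, which may be technical. Values are log2 intensities as deposited, and a difference of 1 on this scale is a doubling.

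CEL encodes carboxyl ester lipase, also called bile salt-stimulated lipase, which the exocrine pancreas and the lactating breast secrete and which splits cholesteryl esters, retinyl esters and triglycerides in the gut. LAPTM5 is a multispanning membrane protein of lysosomes, best known in blood cells, where it binds ubiquitin ligases of the NEDD4 family and lowers antigen receptors at the cell surface. HSPA4L belongs to the HSP110 branch of the HSP70 chaperones, which release ADP from HSP70, and its mouse counterpart was described as a protein induced by osmotic stress. AGTR1 is the type 1 angiotensin II receptor, a membrane receptor coupled to Gq proteins through which the hormone constricts vessels and releases aldosterone. Hepatocytes make its precursor hormone, angiotensinogen.

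The stretches just before the transcript starts of CEL, LAPTM5 and HSPA4L are shown because these 3 genes were all higher in treated than in control Petri cells, and a reader may want to compare what lies there. The sequences and positions are those of RefSeq on GRCh38.p14, 5′ to 3′ on the gene's strand, ending at the base before the start, and for HSPA4L before the most upstream of its 3 listed starts. Capitals mark matches to the motifs searched on both strands in the 250 bases upstream.
CEL, chr9:133061861-133061980, plus strand: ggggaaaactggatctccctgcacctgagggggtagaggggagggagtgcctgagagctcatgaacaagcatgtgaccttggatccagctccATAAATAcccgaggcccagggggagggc
LAPTM5, chr1:30757775-30757894, minus strand: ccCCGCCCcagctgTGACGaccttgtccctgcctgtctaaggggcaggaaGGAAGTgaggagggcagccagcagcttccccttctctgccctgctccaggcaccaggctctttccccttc
HSPA4L, chr4:127781676-127781795, plus strand: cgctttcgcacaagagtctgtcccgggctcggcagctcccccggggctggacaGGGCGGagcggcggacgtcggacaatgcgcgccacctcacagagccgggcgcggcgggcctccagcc

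The 3 windows differed in their matches. That of CEL held the TATA-like run ATAAATA, 28 bases before the start, which occurred in 4.6% of 35097 promoter windows of the same length. That of LAPTM5 held the ETS core GGAAGT (19.5% of windows), the cAMP response element core TGACG (21.2%) and a reversed GC box GGGCGG (42.6%). The GC box was the match of HSPA4L. TATAAA (10.7% of windows), the heat shock element pair GAANNTTC (5.78%), CCAAT (32%) and the AP-1 site TGANTCA (6.57%) matched in 0 of the 3 windows, which says only that these letters were not there. No motif overlapped another. AGTR1 had no entry in the promoter table.

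Hepatocyte markers were looked at first. Of 7 measured, all 7 exceeded the 40th percentile of probe sets on every array, with ALB at a median of 12.9. So did 12057 of all 18404 genes, so passing this percentile does not tell the cell type. The array medians lay between 5.56 and 5.63. On the third principal component of the tested genes, both microsystem arrays numbered 3 stood apart at scores of -13.9 (treated) and -17.2 (control), so values without them are given where they matter. The third treated Petri array is marked with an asterisk of unstated meaning.

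**Figure D1:**
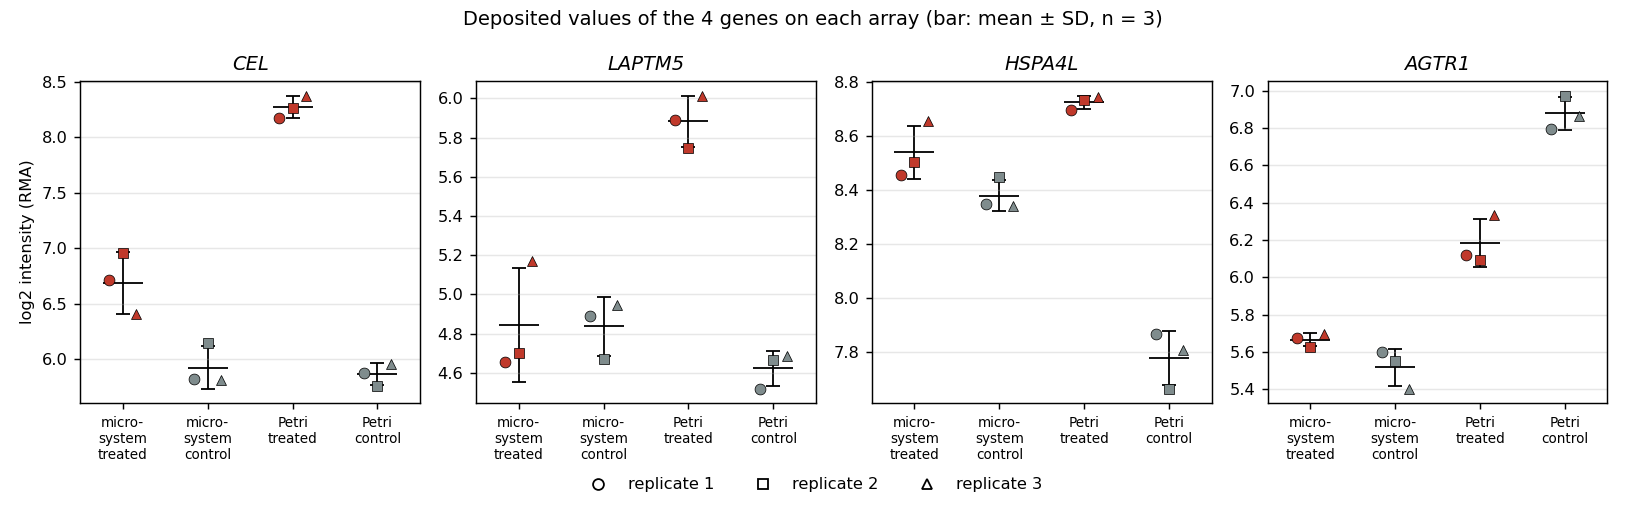
Log2 intensity (vertical axis) of CEL, LAPTM5, HSPA4L and AGTR1 on each of the 12 arrays, by group, with the mean and SD of 3 arrays as bars and the replicate number as the symbol. In CEL, LAPTM5 and HSPA4L the highest group is treated Petri cells, and in AGTR1 it is untreated Petri cells; the vertical axes differ between panels and do not start at 0.

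CEL (probe set 8158976) had the largest response of the 4. Its values in the microsystem were 6.71, 6.95 and 6.40 in treated cells and 5.82, 6.14 and 5.81 in control cells. In Petri dishes they were 8.18, 8.27 and 8.38 in treated cells and 5.87, 5.76 and 5.95 in control cells. Treated arrays lay above control arrays in both cultures, and the untreated groups overlapped. The means therefore ran in the order treated Petri (8.27 ± 0.10, SD, n = 3), treated microsystem (6.69 ± 0.28), control microsystem (5.92 ± 0.19) and control Petri (5.86 ± 0.10), of which the last pair did not differ beyond the spread. The lipase transcript was thus higher under acetaminophen by 0.77 ± 0.13 (SE of the fit) in the microsystem, a fold of 1.7, and by 2.41 ± 0.13 in Petri dishes, a fold of 5.33. The difference of these effects, microsystem minus Petri, was -1.65 ± 0.19, the largest in size of the 13199 genes.

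CEL has a near-identical pseudogene, CELP (probe set 8158987), for which short probes may read both transcripts, and CELP is named here for that reason and not by the rule for named genes. CELP had 5.73, 5.73 and 5.75 in treated and 5.88, 5.98 and 5.78 in control microsystem cells. In Petri dishes it had 6.14, 6.26 and 6.34 in treated and 5.64, 5.81 and 5.96 in control cells. The pseudogene probe set was thus lower by 0.14 ± 0.09 in treated microsystem cells and higher by 0.44 ± 0.09 in treated Petri cells, with a difference of effects of -0.59 ± 0.13. The part of shared probes in either value was not tested, so both are uncertain as values of single transcripts.

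LAPTM5 (probe set 7914270) was higher in treated than in control Petri cells and close to equal in the microsystem groups. It had 4.65, 4.70 and 5.17 in treated and 4.89, 4.67 and 4.95 in control microsystem cells, which overlap. In Petri dishes it had 5.89, 5.75 and 6.01 in treated and 4.52, 4.66 and 4.68 in control cells, which do not. The 3 treated Petri arrays were also the highest of all 12. The transcript of this lysosomal protein differed by 0.01 ± 0.13 in the microsystem and was higher by 1.26 ± 0.13 in Petri dishes, with a difference of effects of -1.26 ± 0.18. These are differences of measured intensities, and no fold is given because control Petri arrays all lay under the 40th percentile. Its means ran from treated Petri (5.88 ± 0.13) through treated microsystem (4.84 ± 0.29) and control microsystem (4.84 ± 0.15) to control Petri (4.62 ± 0.09), and of these the microsystem groups overlapped each other and control microsystem overlapped control Petri.

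LAPTM5 was dim. It exceeded the 40th percentile of probe sets on 1 of 3 treated and 2 of 3 control microsystem arrays, and on 3 of 3 treated and 0 of 3 control Petri arrays. Its level outside treated Petri cells is not shown to be above background. CEL, HSPA4L and AGTR1 exceeded that percentile on all 12 arrays. The replicate 3 array of treated microsystem cells had the highest LAPTM5 value of the microsystem, and without both microsystem arrays numbered 3 the effect there was -0.10 and the difference of effects -1.36.

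HSPA4L (probe set 8097335) lay between the 76.1 and 86.7 percentiles of probe sets on its arrays. The chaperone gene had 8.46, 8.51 and 8.66 in treated and 8.35, 8.45 and 8.34 in control microsystem cells. In Petri dishes it had 8.70, 8.74 and 8.75 in treated and 7.86, 7.66 and 7.81 in control cells. Treated arrays lay above control arrays in both cultures, in the microsystem by a narrow gap, and the 3 control Petri arrays were the lowest of all 12. It was higher by 0.16 ± 0.08 in treated microsystem cells, a fold of 1.12, and by 0.95 ± 0.08 in treated Petri cells, a fold of 1.93, with a difference of effects of -0.79 ± 0.12. The group means were 8.73 ± 0.03 in treated Petri, 8.54 ± 0.10 in treated microsystem, 8.38 ± 0.06 in control microsystem and 7.78 ± 0.10 in control Petri cells, and neighbours in this order did not overlap. Between cultures the sign turned: microsystem minus Petri was -0.19 in treated and 0.60 in control cells. The treatment effect of HSPA4L in the microsystem had a confidence interval of -0.01 to 0.33 in the fit. This effect is part of the difference that chose the gene, so the interval is a description and no test. The sign of the effect is not settled. Without both microsystem arrays numbered 3 that effect was 0.083.

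AGTR1 (probe set 8083240) was the gene of the 4 with lower values in treated Petri cells. The receptor gene had 5.67, 5.63 and 5.70 in treated and 5.60, 5.55 and 5.40 in control microsystem cells. In Petri dishes it had 6.12, 6.09 and 6.34 in treated and 6.80, 6.97 and 6.87 in control cells. Every Petri array exceeded every microsystem array, and treated arrays lay above control arrays in the microsystem and below them in Petri dishes. It was higher by 0.15 ± 0.09 in treated microsystem cells, a fold of 1.11, and lower in treated Petri cells (-0.70 ± 0.09), a fold of 0.617, with a difference of effects of 0.84 ± 0.12. The means were 5.67 ± 0.04 in treated and 5.52 ± 0.10 in control microsystem cells, and 6.18 ± 0.13 in treated and 6.88 ± 0.09 in control Petri cells. Microsystem minus Petri was -0.52 in treated cells and -1.36 in control cells. Without both microsystem arrays numbered 3, the treatment effect of AGTR1 in the microsystem was 0.076.

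**Figure D2:**
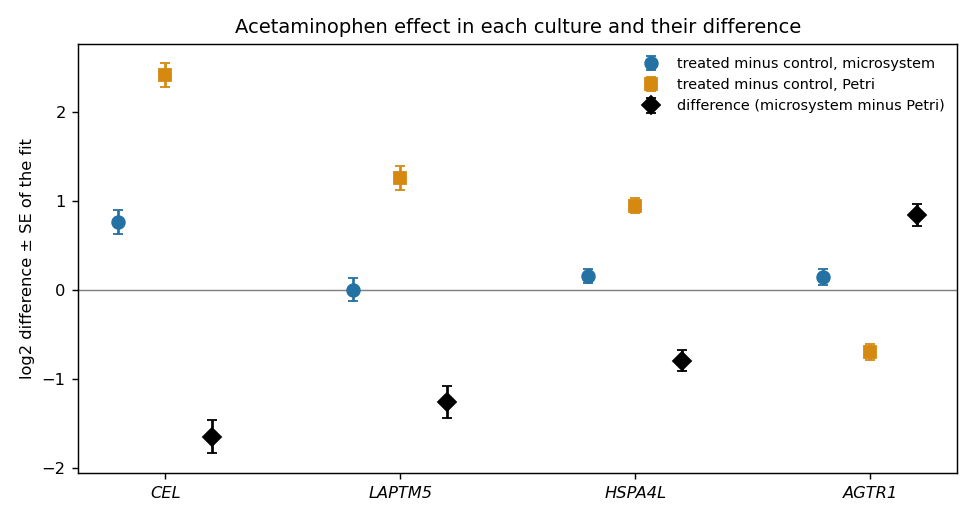
Log2 difference between treated and control cells in the microsystem and in Petri dishes, and the difference of these effects (microsystem minus Petri), for each gene; bars are the SE of the fit over 12 arrays. The Petri effect runs from 2.41 in CEL to -0.70 in AGTR1, and the microsystem effect from 0.77 in CEL to 0.01 in LAPTM5.

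The difference of effects is what chose these genes, so it is given as a description, with no test, and so are the separate effects that make it up. At an adjusted p under 0.05 in limma, 4 of 13199 genes (0.0303%) passed for this difference, namely these, 1 upward (0.00758%) and 3 downward (0.0227%), while 970 had an unadjusted p under 0.05. AGTR1 came last inside that line with a moderated t of 6.79. Just outside came PSTPIP2 with -6.39 (difference -1.29 ± 0.20), DHRS2 with -6.32 (-0.91 ± 0.14) and HMOX1 with 6.17 (1.01 ± 0.16), so the edge of the set is no gap. By size alone CEL ranked 1, LAPTM5 11, AGTR1 38 and HSPA4L 51. The groups of treated and control arrays did not overlap for 3 of the 4 genes in the microsystem, against 27.6% of all genes tested, and for 4 of 4 in Petri dishes, against 34.5%; the choice of the genes bears on these counts, and nothing is read from them.

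CEL passed that line under all 22 alternative settings run. LAPTM5 passed under 12 of 21, HSPA4L under 14 of 22 and AGTR1 under 13 of 22. LAPTM5 fell short without any single array except microsystem treated 3, microsystem control 1 or microsystem control 3. HSPA4L passed without microsystem treated 3, microsystem control 1, microsystem control 3 or Petri control 1, and fell short without any of the other 8 single arrays. AGTR1 passed without Petri treated 3, Petri control 1, microsystem control 1 or microsystem control 3, and fell short without any of the other 8 and without both microsystem arrays numbered 3. The sizes moved less: leaving out 1 array, the difference of effects lay between -1.78 and -1.50 for CEL, -1.42 and -1.16 for LAPTM5, -0.85 and -0.73 for HSPA4L, and 0.79 and 0.92 for AGTR1.

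**Figure D3:**
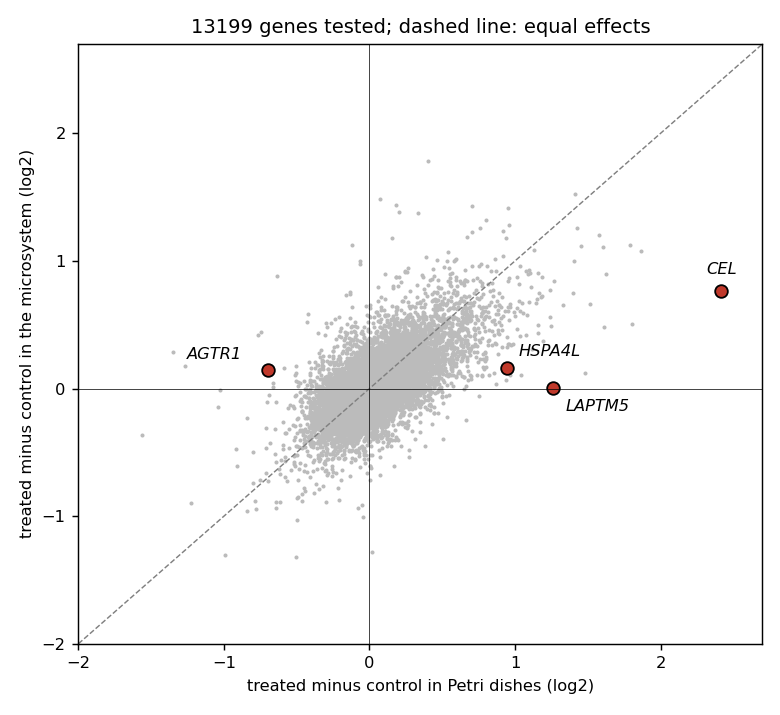
Treatment effect (log2, treated minus control) in Petri dishes on the horizontal axis and in the microsystem on the vertical axis for the 13199 genes tested in grey, with the 4 genes in red; the dashed line marks equal effects. CEL, LAPTM5 and HSPA4L lie right of the line, and AGTR1 lies left of it at -0.70 in Petri dishes and 0.15 in the microsystem.

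The average of the treatment effects over cultures, and the average of the culture effects over treatments, are estimated independently of the difference in this balanced design and were tested, although they share with it the estimate of the spread. CEL was higher in treated cells by 1.59 ± 0.09 on average (limma, adjusted p = 3.34e-07), LAPTM5 by 0.63 ± 0.09 (adjusted p = 0.00039) and HSPA4L by 0.55 ± 0.06 (adjusted p = 3.77e-05). AGTR1 was lower on average (-0.27 ± 0.06, adjusted p = 0.0071). So 4 of 4 passed, where 23.3% of all genes did, 15% upward and 8.31% downward. LAPTM5 passed with the limit that it was dim outside treated Petri cells. The choice of the genes bears on this count too. It used the same estimate of the spread, and an effect mainly in Petri dishes also enters the average. Nothing is read from the comparison with all genes. The AGTR1 average combines estimates of opposite sign. The microsystem effect of AGTR1 had a confidence interval of -0.04 to 0.34, also a description and no test, and the sign there is not settled. The averages of LAPTM5 and HSPA4L rest mainly on the Petri arrays.

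Averaged over treated and control cells, CEL, LAPTM5 and AGTR1 were lower in the microsystem than in Petri dishes and HSPA4L was higher. The angiotensin receptor gene AGTR1 had a culture effect of -0.94 ± 0.06 (limma, adjusted p = 4.82e-08), a fold of 0.521, with microsystem arrays below Petri arrays in treated and in control cells. CEL had -0.76 ± 0.09 (adjusted p = 1.13e-05) and LAPTM5 -0.41 ± 0.09 (adjusted p = 0.00165). For both the control groups of the 2 cultures overlapped, with microsystem minus Petri at 0.06 for CEL and 0.21 for LAPTM5 in control cells. Microsystem and Petri arrays did not overlap for 4 of 4 genes in treated cells, against 52.9% of all genes, and for 2 of 4 in control cells, against 52.4%. The choice of the genes bears on these counts as well, and nothing is read from them. HSPA4L had 0.21 ± 0.06 (limma, adjusted p = 0.00702), an average of opposite signs, -0.19 in treated and 0.60 in control cells. Culture changed many genes, since 57% of those tested passed for this effect, so that 4 of 4 is not particular to these genes.

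The genes most like each of the 4 were those with the smallest root-mean-square distance over the 12 arrays after centring each gene on its own mean, a description with no test. Nearest to CEL were PSTPIP2 (0.395), the diacylglycerol kinase gene DGKA (0.405) and the mucin gene MUC13 (0.425), against a median distance of 1.01 over all genes tested. PSTPIP2 averaged 4.24 in treated and 3.73 in control microsystem cells, and 6.02 in treated and 4.22 in control Petri cells. Outside treated Petri cells these means lay under the arrays' 40th percentiles (4.805 to 4.898), so PSTPIP2 was dim there. DGKA and MUC13 were also highest in treated Petri cells, at 8.92 and 7.55.

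Nearest to LAPTM5 were the troponin gene TNNT3 (0.183), the Notch receptor gene NOTCH1 (0.197) and TRIM22 (0.22), against a median of 0.551. NOTCH1 averaged 6.40 in treated and 6.29 in control microsystem cells, and 7.41 in treated and 6.37 in control Petri cells. Nearest to HSPA4L were PLEKHA6 (0.129), TOPBP1, a scaffold of DNA replication and damage signalling (0.133), and EI24 (0.135), against a median of 0.411. EI24 averaged 9.39 in treated and 9.29 in control microsystem cells, and 9.48 in treated and 8.75 in control Petri cells. Nearest to AGTR1 were TMIGD2 (0.18) and the chromatin remodelling gene INO80D (0.181), against a median of 0.564. TMIGD2 averaged 6.84 in treated and 6.94 in control microsystem cells, and 7.40 in treated and 7.87 in control Petri cells. Among the 4 genes themselves LAPTM5 and HSPA4L were closest (0.364), and CEL and AGTR1 farthest apart (1.14).

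Related genes were taken from lists of general knowledge. Of 27 lipases, carboxylesterases and partners listed beside CEL, 14 were tested. In the microsystem 2 rose, 0 fell and 12 did not pass, where 9.06% of all genes passed (6.39% upward and 2.67% downward). In Petri dishes 4 rose, 1 fell and 9 did not pass, where 10.4% of all genes passed, 8.38% upward and 1.98% downward (1367 genes, and 2180 with the replicate number as a block within each culture). The list's median effect was 0.04 in the microsystem and 0.17 in Petri dishes, against -0.01 and 0.01 over all genes.

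LIPH, a phosphatidic acid-selective lipase gene, passed upward in both cultures but was dim. It exceeded the 40th percentile on the 3 treated microsystem arrays and on 0 of the other 9, so it entered the test through the group in which it is high, and its Petri values compare arrays that all lie under that percentile. It had 4.88, 5.69 and 5.90 in treated and 4.38, 4.08 and 4.34 in control microsystem cells, a measured difference of 1.22 ± 0.19 (limma, adjusted p = 0.00241). In Petri dishes its values were 4.70, 4.73 and 4.59 in treated and 3.94, 3.99 and 3.97 in control cells, a measured difference of 0.71 ± 0.19 (adjusted p = 0.0329), lost without any single Petri array. SOAT1, which esterifies cholesterol, rose in the microsystem by 0.32 ± 0.09 (adjusted p = 0.0372), also lost without any of 7 single arrays. In Petri dishes CES1, the main liver carboxylesterase gene, rose by 0.57 ± 0.17 (adjusted p = 0.046), the lysosomal acid lipase gene LIPA by 0.46 ± 0.12 (adjusted p = 0.0218) and CES4A by 0.37 ± 0.09 (adjusted p = 0.0179). CES4A exceeded the 40th percentile on the 3 treated Petri arrays and on 0 of the other 9, so it too entered the test through the group in which it is high. Without LIPH and CES4A the list's rises were 1 in the microsystem and 2 in Petri dishes. PNPLA3, a lipid droplet lipase gene, fell by 0.67 ± 0.16 (adjusted p = 0.0198). These calls were lost without any of 7, 4, 1 and 4 single arrays for CES1, LIPA, CES4A and PNPLA3. CES2, another carboxylesterase gene, differed by 0.06 ± 0.14 and 0.27 ± 0.14 in the microsystem and in Petri dishes (adjusted p = 0.817 and 0.232). For the difference of effects only CEL, LAPTM5, HSPA4L and AGTR1 passed of 13199 genes, so 0 of the 14 was fixed beforehand. In limma 3 of the 14 had an unadjusted p under 0.05, against 970 of all 13199.

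CEL is a marker of the exocrine pancreas, so other markers of that tissue were looked at. The trypsinogen gene PRSS1 and CPB1, CELA2A, CTRC and GP2 were at or under the 40th percentile on all 12 arrays, PRSS1 at 3.47 to 3.91, while PTF1A and CELA3A exceeded it on all 12 and CPA1 on 7. The summed log2 level of the 8 measured pancreas markers was 35.9 to 36.9 in treated and 36.7 to 37.1 in control microsystem cells, and 37.0 to 37.5 in treated and 37.5 to 37.7 in control Petri cells. The sum is a level of transcripts in a hepatoma line and not a share of pancreas cells. Its relation to the CEL values was not tested.

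Beside LAPTM5, 20 relatives, NEDD4-type ligases, adaptors and lysosomal membrane proteins were listed and all were tested. In the microsystem 2 rose, 0 fell and 18 did not pass, and in Petri dishes the counts were the same. That is 10% in each culture, near the 9.06% and 10.4% of all genes, so nothing is read from these counts. SCARB2, a lysosomal membrane receptor gene, rose by 0.40 ± 0.08 in the microsystem (limma, adjusted p = 0.00863) and by 0.28 ± 0.08 in Petri dishes (adjusted p = 0.0394). SMURF2, a ligase gene of the NEDD4 family, rose in the microsystem by 0.44 ± 0.12 (adjusted p = 0.0391), and GGA3, a sorting adaptor gene that binds LAPTM5, in Petri dishes by 0.31 ± 0.08 (adjusted p = 0.0234). The relatives LAPTM4A and LAPTM4B differed by 0.08 ± 0.07 and 0.13 ± 0.13 in the microsystem and by -0.05 ± 0.07 and 0.06 ± 0.13 in Petri dishes (adjusted p from 0.518 to 0.811). The calls of SMURF2 in the microsystem and of GGA3 and SCARB2 in Petri dishes were lost without any of 7, 4 and 8 single arrays, and that of SCARB2 in the microsystem without both arrays numbered 3 (adjusted p = 0.0551). For the difference of effects 0 of 20 passed in limma, which was fixed beforehand because only the 4 chosen genes did. At an unadjusted p under 0.05 there were 0 of 20, against 970 of all 13199 genes.

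LAPTM5 is also known as a gene of blood cells. The common leukocyte antigen gene PTPRC lay between 2.44 and 2.74, and it and CD53, CD48, CYBB, IKZF1 and HCLS1 were at or under the 40th percentile on all 12 arrays. CORO1A (6.14 to 6.51), ITGB2 (7.29 to 9.24), SPI1 (5.29 to 5.83) and RAC2 (5.63 to 6.09) exceeded it on all 12, and LCP1 on 3. The summed level of the 11 measured leukocyte markers was 50.2 to 51.6 in treated and 51.3 to 51.8 in control microsystem cells, and 52.5 to 53.3 in treated and 52.9 to 53.4 in control Petri cells. As with the pancreas markers, this sum is a level of transcripts in the hepatoma line and not a share of leukocytes. Its relation to the LAPTM5 values was not tested.

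Of 30 HSP110 and HSP70 relatives, cochaperones and heat shock factor targets listed beside HSPA4L, 25 were tested. In the microsystem 1 rose, 0 fell and 24 did not pass. Over all genes 9.06% passed there and 10.4% in Petri dishes. In Petri dishes 0 passed in limma, with 7 at an unadjusted p under 0.05, 1 that rose with the replicate block within each culture and 7 that passed with array weights. The median effect of the list was -0.03 in the microsystem and 0.05 in Petri dishes. HSPA4, the closest relative of HSPA4L, had 9.89, 9.97 and 9.95 in treated and 9.96, 9.97 and 9.98 in control microsystem cells. In Petri dishes it had 9.37, 9.67 and 9.74 in treated and 9.37, 9.67 and 9.72 in control cells. Treated and control HSPA4 values overlapped in both cultures, with effects of -0.03 ± 0.11 and 0.01 ± 0.11 (adjusted p = 0.878 and 0.974).

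The third cytosolic member of the HSP110 branch, HSPH1, had effects of 0.33 ± 0.10 in the microsystem and 0.28 ± 0.10 in Petri dishes (limma, adjusted p = 0.052 and 0.0867). The heat shock factor gene HSF1 had 0.04 ± 0.08 and 0.21 ± 0.08 (adjusted p = 0.778 and 0.131). DNAJB4, a J-domain cochaperone gene, rose by 0.41 ± 0.09 in the microsystem (adjusted p = 0.0155), a call lost without microsystem treated 3 and without both arrays numbered 3. For the difference of effects 0 of 25 passed in limma, likewise fixed because only the 4 chosen genes did. At an unadjusted p under 0.05 there were 2 of 25, against 970 of all 13199 genes.

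The osmotic response was listed because of the mouse counterpart of HSPA4L, and 10 of 12 genes were tested. In the microsystem 0 rose and 1 fell, and in Petri dishes 1 rose and 1 fell, with 9 and 8 that did not pass. Over all genes 9.06% and 10.4% passed. SLC5A3, the myo-inositol transporter gene, rose in Petri dishes by 1.61 ± 0.40 (limma, adjusted p = 0.0218), where its 3 treated values lay above its 3 control values, and the call was lost without any Petri array except Petri control 1. In the microsystem its effect was 0.48 ± 0.40 (adjusted p = 0.475), with control arrays spread between 9.03 and 11.11. The difference of effects of SLC5A3 was -1.13 ± 0.57 (adjusted p = 0.703). The creatine transporter gene SLC6A8 fell by 0.30 ± 0.08 in the microsystem and by 0.34 ± 0.08 in Petri dishes (adjusted p = 0.0369 and 0.0191), calls lost without any of 6 and 3 single arrays. The osmotic response factor gene NFAT5 had 0.14 ± 0.16 and 0.17 ± 0.16 (adjusted p = 0.592 and 0.521).

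Of 31 genes of the renin-angiotensin system and of AGTR1 signalling, 17 were tested. In the microsystem 1 rose, 0 fell and 16 did not pass, where 9.06% of all genes passed. In Petri dishes 2 rose, 0 fell and 15 did not pass, where 10.4% of all genes passed. With the replicate block within each culture 5 passed in Petri dishes. ATP6AP2, the prorenin receptor gene, rose by 0.38 ± 0.08 in the microsystem and by 0.34 ± 0.08 in Petri dishes (limma, adjusted p = 0.00944 and 0.0118). GNA11, which encodes a Gq-type subunit that the receptor uses, rose in Petri dishes by 0.45 ± 0.09 (adjusted p = 0.00837), a call kept without any single array, while that of ATP6AP2 was lost in Petri dishes without Petri control 2 (adjusted p = 0.0563) and in the microsystem with only the 6 arrays compared (adjusted p = 0.0609). For the difference of effects 0 of 17 passed in limma, again fixed because only the 4 chosen genes did. At an unadjusted p under 0.05 there were 3 of 17, against 970 of all 13199 genes.

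AGT, the angiotensinogen gene, was bright in every group. It lay between 11.24 and 11.46 in treated and 11.38 and 11.66 in control microsystem cells, and between 11.32 and 11.34 in treated and 11.38 and 11.59 in control Petri cells. Its effects were -0.19 ± 0.09 and -0.15 ± 0.09 (limma, adjusted p = 0.214 and 0.325). The converting enzyme gene ACE and the type 2 receptor gene AGTR2 were dim and not tested. AGTRAP, and LIPC of the lipases, had no probe set of exactly 1 symbol. The adrenal and smooth muscle markers, tissues that carry AGTR1, summed to 44.2 to 46.6 in treated and 45.0 to 46.8 in control microsystem cells, and to 45.8 to 47.0 in treated and 46.5 to 47.7 in control Petri cells, over 8 genes. CYP11B2 was at or under the 40th percentile on all 12 arrays, MYH11 exceeded it on 1 and CNN1 on 8, and CYP11B1, STAR, NR5A1 (7.51 to 8.19), TAGLN (5.84 to 8.17) and DES exceeded it on all 12. These sums too are levels of transcripts in the hepatoma line and not shares of adrenal or muscle cells. Their relation to the AGTR1 values was not tested.

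**Figure D4:**
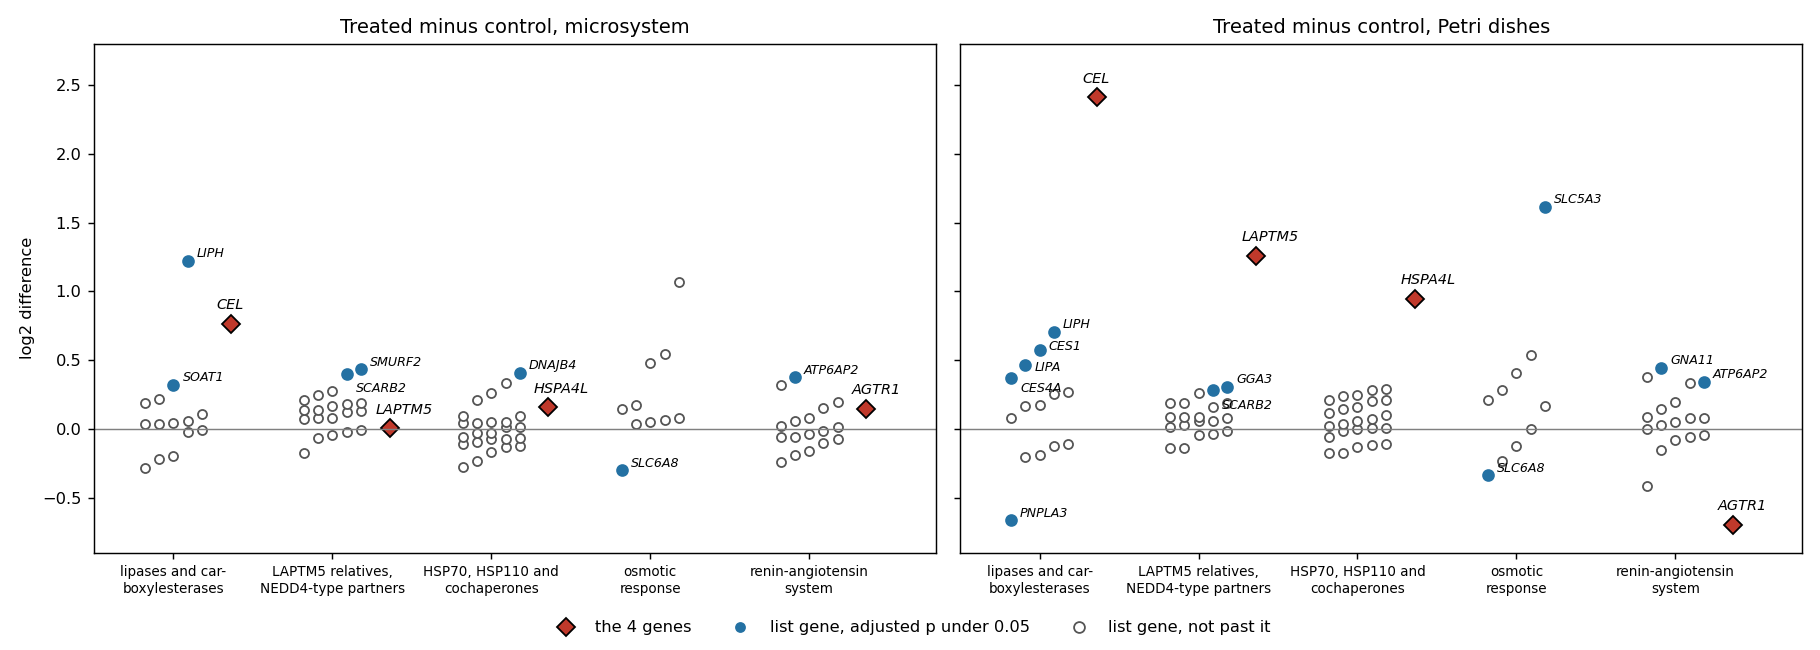
Treatment effect (log2, treated minus control) of the tested genes of 5 lists in the microsystem (left) and in Petri dishes (right), with the 4 genes as red diamonds beside their lists; filled blue points passed at an adjusted p under 0.05 over all genes tested. In Petri dishes CEL at 2.41, LAPTM5 at 1.26 and HSPA4L at 0.95 lie above every tested gene of the lipase, LAPTM5 and HSP110 lists. AGTR1 at -0.70 lies below every one of the renin-angiotensin list, and SLC5A3 of the osmotic list, at 1.61, lies above HSPA4L. The 4 genes were chosen by a difference that contains these effects and the list genes were not, so nothing is read from their places.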

How the data were processed

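The authors deposited a log2 intensity for each probe set and array. The submitters' processing notes name RMA (robust multi-array averaging) and Affymetrix Expression Console, and no new normalization was applied. Of 32321 probe sets, 19158 had 1 symbol in the array's probe annotation, updated through gene identifiers to RefSeq symbols, 1388 had several and 11775 had none. The probe set with the highest mean stood for a gene, and a gene was tested when at least 3 arrays exceeded the array's 40th percentile, which kept 13199 of 18404 genes. All 12 arrays entered a single limma 3.58.1 fit with a mean for each group (R 4.3.3) with empirical Bayes moderation (8 residual and 5.35 prior degrees of freedom). Tests were two-sided, with Benjamini-Hochberg adjustment over all genes tested. Figures were drawn with matplotlib 3.10.9 in Python 3.11.15.

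The members and lists were chosen with earlier results of these data known. Named genes were the 4 members, their 3 nearest genes each, list genes past the threshold (up to 3 rises and 3 falls per treatment effect) and a fixed set of close relatives; a few genes that this rule names are not reported here. On simulated data of 13199 genes the procedure recovered 44% and 82% of genes changed 1.5-fold and 2-fold in the difference of effects, 73% and 97% in the microsystem and 84% and 97% in Petri dishes. In each of these comparisons 11 unchanged genes were also called. The simulated noise was normal and independent between arrays, with no array standing apart, so recovery in the real data may differ. Alternatives were quantile normalization, equal array medians, other filters, the mean of probe sets, an intensity trend, array weights, replicate blocks, only the arrays compared, and leaving out arrays. Deviations of same-numbered treated and control arrays correlated across genes at 0.48, 0.19 and 0.31 in Petri dishes and at 0.11, 0.07 and 0.60 in the microsystem. The numbers may thus pair arrays. The main fit had no term for the replicate number, so its SEs and p-values do not use such a pairing. It entered only the alternatives with replicate blocks. The number of arrays limits the precision.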

Additional observations from a re-analysis of the deposited data

Results flagged for a closer look

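The treatment effect differed between the cultures in each of the 4 genes, which is what they were chosen for. The difference of effects, microsystem minus Petri, was -1.65 for CEL, -1.26 for LAPTM5, -0.79 for HSPA4L and 0.84 for AGTR1 on the log2 scale. Groups of 3 arrays are too small for Dixon's test of an outlying value, which was not run. The LAPTM5 value of -1.255 rests on a probe set that is dim outside treated Petri cells.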

How the results depend on the processing

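For the 4 genes, the average treatment and culture effects kept their direction and stayed past the threshold under every alternative run, with adjusted p up to 0.0227 (AGTR1, treatment). The replicate block within each culture gives no culture effect, and LAPTM5 was not tested under the 60th percentile filter. With arrays left out or weighted the design is not balanced. The averages are then not independent of the difference that chose the genes. The differences of effects kept their sign and moved by less than the spread between replicates, except that of HSPA4L with array weights (-0.90). The number of genes past the threshold for the difference of effects was 4. It was 7 after quantile normalization, 10 with an intensity trend, 54 with array weights, 18 with a replicate block over all groups, 24 with a replicate block within each culture and 11 without both microsystem arrays numbered 3. All 4 genes were among those called in these settings, except AGTR1 in the last. Leaving out 1 array it lay between 1 and 13. For treatment in Petri dishes 1367 genes passed, against 3602 with array weights, 2180 with a replicate block within each culture and 697 to 1522 leaving out 1 array. For treatment in the microsystem 1196 passed, against 2109 with a replicate block within each culture, 678 without both microsystem arrays numbered 3, 453 with only the 6 arrays compared and 459 to 1440 leaving out 1 array. The cause of these shifts was not tested. The same alternatives were added for list genes after the data were seen, and no called list gene changed sign. The replicate block changed no call of the 4 genes. Signal over background limits LAPTM5 outside treated Petri cells. With 3 arrays against 3, an exact permutation test could not go below p = 0.1.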
